A study of Mus musculus with 2 samples.

Results

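The paired receptors that carry or couple to ITAM and ITIM motifs were examined in RANKL-treated mouse marrow cultures. These 10 genes, of 26037 in the deposited table, were chosen by symbol: 5 on the activating side (Oscar, Trem1, Trem2, Trem3 and the adaptor Tyrobp) and 5 on the inhibitory side (Lilrb3, Lilrb4, Sirpa, Cd300lf and Cd200r1). All 10 symbols had a row. Expression in an MMP9 knockout culture was compared with that in a control culture, with 1 polyadenylated RNA library of each. Both came from C57BL/6 mice aged 6 to 8 weeks. Marrow was grown in M-CSF at 5 ng/ml, its non-adherent cells spent 3 days with 30 ng/ml M-CSF, and both genotypes then received RANKL, the cytokine that turns marrow macrophages into osteoclasts. RANKL was given for 3 days. The labels call the cells primary osteoclasts. The table headings add the letters "sh" for the knockout and "NCsh" for the control, so it is unclear if the gene was removed or knocked down. The number of animals that gave marrow is not stated.

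ITAMs are tyrosine motifs in the tails of adaptors such as DAP12 (encoded by Tyrobp) and the Fc receptor gamma chain (Fcer1g). Phosphorylated by Src family kinases, they recruit the kinase Syk and raise calcium, which in osteoclast precursors costimulates the RANK pathway and activates NFATc1. ITIMs sit in the receptor's own tail and recruit the phosphatases SHP-1, SHP-2 and SHIP-1, which oppose that signal. Many of these receptors stand in families whose activating and inhibitory members have related ectodomains, hence the name paired receptors.

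Reads recovered from the deposited values summed over all genes to 17741432 in the MMP9 KO library and 20678441 in the Control library. These sums are not library sizes: reads outside the listed genes are missing, and a read counted in more than 1 gene would count again. Levels are normalised read counts, that is reads times 1 factor for each library, not divided by the length of the gene. With 1 library per group there is no replicate check, no test between genotypes was possible, and ranges in parentheses are exact 95% intervals for counting error only. Mmp9 was 3.87 in the MMP9 KO library and 139 in the Control library, 36.0-fold lower (30.8 to 42.3). A gene was compared if its 2 levels averaged 1 or more, and a call means a difference of at least 2-fold on log2 of the level plus 1. A gene with 1 low level could pass only through the other library, which partly fixed its call. Of 11126 compared genes, 1066 were lower in the MMP9 KO library (9.58%) and 445 were higher (4.0%), 13.6% in either direction, with a median log2 ratio of -0.16. With both libraries scaled to the same sum, a shift of 0.29 in log2, 684 were lower and 691 higher. Markers of mature osteoclasts were low in the MMP9 KO library: 11 of 12 were lower by at least 2-fold, among them Oscar and Mmp9 themselves, and their summed level was 1002 against 7671 in the Control library. Of 17 macrophage markers 9 were compared. Of these 5 were higher and 1 was lower, and the summed level of all 17 was 1431 in the MMP9 KO library and 1064 in the Control library. What share of the receptor differences goes with these cell states was not tested, and in bulk RNA fewer cells of a type and less RNA per cell cannot be told apart.

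Of the 10 receptor genes, 7 passed the level filter: 4 were lower in the MMP9 KO library (Oscar, Tyrobp, Lilrb3 and Sirpa), 2 were higher (Lilrb4 and Cd300lf), and Trem2 lay within 2-fold. Over all compared genes 9.58% were lower and 4.0% higher. Trem1, Trem3 and Cd200r1 stayed under the filter. Cd300lf passed it with a mean of 1.003, through the MMP9 KO library alone, so that its call was partly fixed by the filter. Oscar and Lilrb3 passed it through the Control library alone, at 25.1 and 7.18 there, so the same limit holds for their calls. Both lower and higher genes therefore occurred on the inhibitory side, while on the activating side the calls were lower ones and the higher value of Trem3 was below the filter. The plot of levels shows every receptor in both libraries.

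**Figure D1:**
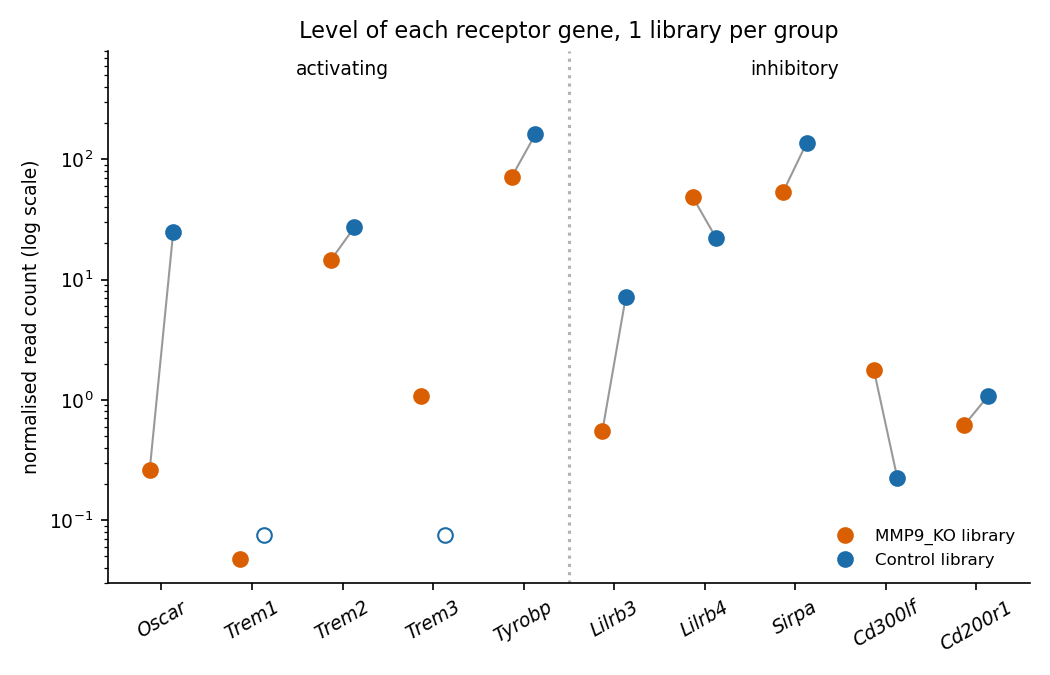
Normalised read count (log scale) of each receptor gene in the MMP9 KO library (orange, left) and the Control library (blue, right), 1 library each, with activating genes left of the dotted line and inhibitory genes right of it. Open circles mark genes with no read, drawn at the level of 3 reads. Oscar spans the widest gap among genes with reads in both libraries, at 0.261 and 25.1, while Lilrb4 and Cd300lf are higher in the MMP9 KO library.

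Oscar encodes the osteoclast-associated receptor, a collagen-binding receptor that signals through the Fc receptor gamma chain. It had 11 reads and a level of 0.261 in the MMP9 KO library, against 1009 reads and 25.1 in the Control library. It was thus nearly absent from one library and well expressed in the other. The fold was 95.9 lower (53.4 to 193), so that 1.04% of the control level was left. Ranked from the lowest log2 ratio among the 11126 compared genes, Oscar was number 12 at -4.37 and Mmp9 number 6. Per kilobase of transcript Oscar stood above 73.6% of compared genes in the Control library, and above 0.999% of them in the MMP9 KO library. Oscar (ENSMUSG00000054594) lies on the minus strand of chromosome 7, from 3609813 to 3616157 in GRCm38. Lilrb3, which was also lower (log2 ratio -2.40), lies within 100 kb of it. Of the 9 other compared genes within 100 kb, 1 was lower by at least 2-fold (Ndufa3, log2 ratio -1.02) and none was higher, the highest being Prpf31 at 0.33. Ndufa3 and Prpf31 were named after their values were seen.

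The 250 bases before the RefSeq start site are shown for Oscar and Lilrb3, the genes with the lowest ratios here, and for Trem2 and Cd300lf, which lay within 2-fold and higher. RefSeq (GRCm38.p6) held such an entry for 5 of the 10 receptor genes, with Lilrb3 found as Pirb. Capitals mark matches, on either strand, to core motifs of factors known to act in osteoclasts and macrophages: GAGGAA for PU.1, TCANNTG for MITF, GGAAAA for NFAT, TGANTCA for AP-1, and the interferon-stimulated response element. The windows are chr7:3616158-3616407 (minus strand), chr7:3720383-3720632 (minus strand), chr17:48346151-48346400 (plus strand) and chr11:115133993-115134242 (minus strand), each written 5′ to 3′ towards the gene.
Oscar: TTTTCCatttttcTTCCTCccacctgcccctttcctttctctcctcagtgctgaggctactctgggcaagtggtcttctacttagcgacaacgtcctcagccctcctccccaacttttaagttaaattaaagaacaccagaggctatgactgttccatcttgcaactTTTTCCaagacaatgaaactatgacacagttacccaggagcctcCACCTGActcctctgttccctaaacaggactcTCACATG
Lilrb3: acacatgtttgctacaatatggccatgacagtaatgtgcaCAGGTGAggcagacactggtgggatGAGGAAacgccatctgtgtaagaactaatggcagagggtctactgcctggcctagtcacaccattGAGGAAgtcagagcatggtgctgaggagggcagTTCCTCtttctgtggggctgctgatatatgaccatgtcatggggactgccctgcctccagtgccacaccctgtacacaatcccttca
Trem2: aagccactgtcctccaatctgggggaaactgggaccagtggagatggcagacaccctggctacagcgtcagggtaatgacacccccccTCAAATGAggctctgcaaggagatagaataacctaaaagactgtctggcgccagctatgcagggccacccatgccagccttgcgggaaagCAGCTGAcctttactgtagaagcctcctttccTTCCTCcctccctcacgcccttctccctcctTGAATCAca
Cd300lf: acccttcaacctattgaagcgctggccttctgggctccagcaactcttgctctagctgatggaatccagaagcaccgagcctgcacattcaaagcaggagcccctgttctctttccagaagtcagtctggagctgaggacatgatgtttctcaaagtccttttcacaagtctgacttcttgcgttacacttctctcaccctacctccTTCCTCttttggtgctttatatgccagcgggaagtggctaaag

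The Oscar window held 2 matches to the NFAT core, 1 to the PU.1 core and 2 to the MITF core, the nearest starting 7 bases before the start site. NFATc1, PU.1 and MITF are known to drive the mouse Oscar gene. The Lilrb3 window held 3 PU.1 matches and 1 MITF match, and the Trem2 window 1 PU.1, 3 MITF and 1 AP-1 match, of which 2 of the MITF matches overlap each other. In the Cd300lf window there was 1 PU.1 match and no other. These cores are common: of 32851 RefSeq promoters of the same length, 23.3% held the PU.1 core, 37.3% the MITF core, 20.4% the NFAT core, 6.75% the AP-1 core and 2.98% the interferon element, which none of the 4 windows shown held. The matches describe letters in the windows and were not tested for binding.

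The TREM genes encode activating receptors of myeloid cells that signal through DAP12. Trem2, which binds lipids and apolipoproteins and takes part in osteoclast fusion, was 14.5 in the MMP9 KO library and 27.1 in the Control library, from 610 and 1092 reads. That is 1.87-fold lower (1.69 to 2.07), a log2 ratio of -0.86, which is inside the 2-fold limit. Trem2 was lower under all of the 10 settings tried, between -0.90 and -0.48. Trem3, a mouse receptor found on macrophages and neutrophils, had 45 reads in the MMP9 KO library, a level of 1.07, and none in the Control library. Set against a limit of 3 reads in the Control library it was at least 14.3-fold higher, and the exact interval, which also covers the counting error of the 45 reads, starts at 11.2. Trem1, which amplifies inflammatory responses, had 2 reads in the MMP9 KO library and none in the Control library, so no fold can be given and both levels lie under the limit that 3 reads allow. With the level filter, none of these 3 genes of the cluster on chromosome 17 was called lower or higher.

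Because Trem1 and Trem3 are also neutrophil genes, markers of that cell type are given beside them. Of 16 neutrophil markers none reached the level for comparison, and their summed level was 3.33 in the MMP9 KO library and 0.721 in the Control library. Ly6g, S100a9, Elane, Mpo and Ltf had no read in either library, and 10 of the 16 were at 0 in the MMP9 KO library and 13 in the Control library. Most of the sum in the MMP9 KO library came from Lcn2, at 1.66 there with no read in the Control library, and Csf3r, at 0.903 and 0.149. These 2 were named after their values were seen.

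Tyrobp, whose product DAP12 is the ITAM adaptor of the TREM receptors, was the most abundant gene of the 10 on either scale. It was 71.6 in the MMP9 KO library and 161 in the Control library, from 3015 and 6481 reads, and so 2.25-fold lower (2.15 to 2.35). Its log2 ratio of -1.16 passed the 2-fold limit with the values as deposited. With the knockout rescaled to a median of 0, by a trimmed mean or to equal sums, or after centring by GC content or transcript length, the ratio was inside the limit, up to -0.65. Per kilobase it stood above 98.1% of compared genes in the MMP9 KO library and 98.9% in the Control library. The other adaptors did not share its difference in size. Fcer1g, the adaptor of Oscar and of activating Fc receptors, was 166 in the MMP9 KO library and 119 in the Control library (1.39-fold higher, 1.34 to 1.45). Hcst, which encodes DAP10, was 1.52 and 2.16. Per kilobase, Tyrobp over Fcer1g was therefore 0.493 in the MMP9 KO library and 1.54 in the Control library, so the order of the adaptors was opposite in the 2 libraries. Ratios inside a library do not depend on how the libraries are scaled to each other.

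**Figure D2:**
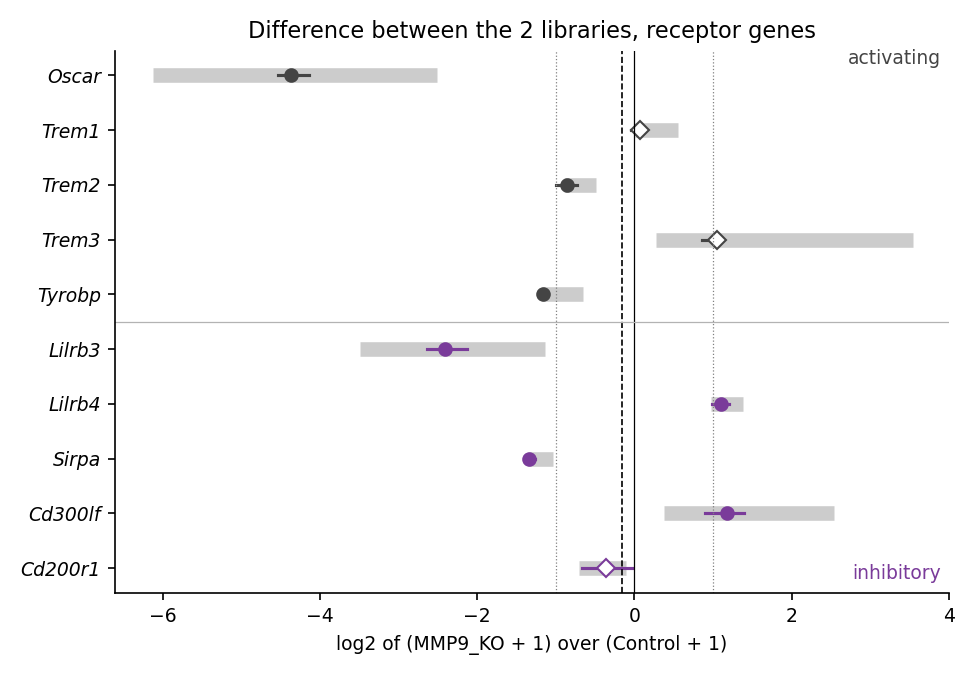
Log2 ratio of MMP9 KO over Control, each level plus 1, for the 10 receptor genes, activating genes above the grey line and inhibitory genes below it. Points are the values as deposited, thin bars exact 95% counting intervals, and grey bands the range over the 10 settings. Open diamonds are genes under the level filter, dotted lines mark 2-fold and the dashed line the median of all compared genes (-0.16). No gene has a band that crosses 0, and the band of Tyrobp reaches inside the 2-fold line.

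On the inhibitory side, Lilrb3 encodes PIR-B, a receptor for MHC class I that restrains osteoclast formation. It was 0.546 in the MMP9 KO library and 7.18 in the Control library, from 23 and 289 reads, 13.1-fold lower (8.59 to 21.1). In the same ranking it was number 135, at -2.40. Sirpa, whose product binds CD47 and takes part in macrophage self-recognition and in fusion, was 54.0 in the MMP9 KO library and 138 in the Control library. It was 2.55-fold lower (2.43 to 2.68) and lower by at least 2-fold in each of the 10 settings, as was Oscar. Lilrb3 was so in each setting in which it passed the level filter, and the filter at a mean of 5 removed it.

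Lilrb4 encodes gp49B, an ITIM receptor of macrophages, mast cells and other myeloid cells. It was 48.3 in the MMP9 KO library and 22.1 in the Control library, from 2035 and 888 reads, 2.19-fold higher (2.02 to 2.37). Its log2 ratio was 1.10, or 0.98 with a pseudocount of 5, just inside the 2-fold limit. Cd300lf, a receptor for phosphatidylserine and ceramide with ITIMs in its tail, was 1.78 in the MMP9 KO library and 0.224 in the Control library. It was 7.97-fold higher (3.98 to 18.1), which rests on 75 and 9 reads. Cd200r1, the receptor for CD200, which has no ITIM and inhibits through Dok adaptors, was 0.618 in the MMP9 KO library and 1.07 in the Control library. At 26 and 43 reads it was 1.73-fold lower, with an interval from 1.04 to 2.93, and its mean of 0.843 was under the filter.

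Set against each other, the activating and the inhibitory genes overlapped in their ratios. Over all 5 genes of each class the median log2 ratio was -0.86 on the activating side, with a range from -4.37 to 1.05, and -0.35 on the inhibitory side, with a range from -2.40 to 1.18. The difference of the medians was -0.51, with the activating side lower. It was -0.74 without Cd200r1, which is under the level filter, and -0.042 without Tyrobp, which is an adaptor and not a receptor. The value without Tyrobp keeps Trem1, with 2 reads, and Trem3 in the activating median, both under the filter. Among compared genes only, which leaves out Trem1, Trem3 and Cd200r1, the medians were -1.16 and -0.12, a difference of -1.04. Leaving out Tyrobp here widened the difference, since the 2 compared activating receptors, Oscar and Trem2, had a median of -2.62. With all 5 genes of each class the difference was -0.61 with a pseudocount of 5 and -0.038 after centring by GC content. Its size therefore depends on single genes and on the setting. Within each library, levels per kilobase of the longest protein-coding transcript can be added up. The activating receptors (without Tyrobp) summed to 14.6 in the MMP9 KO library and 38.6 in the Control library, and the inhibitory ones to 48.5 and 52.5. Inhibitory over activating was therefore 3.33 in the MMP9 KO library and 1.36 in the Control library. These sums depend on the transcript lengths chosen and on a few genes.

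The make-up of both sums also differed. Oscar gave 0.982% of the activating sum in the MMP9 KO library and 35.5% in the Control library, while Trem2 gave 91.5% and 64.5%. On the inhibitory side Sirpa gave 28.0% in the MMP9 KO library and 66.0% in the Control library, and Lilrb4 69.1% and 29.2%. Sirpa over Lilrb4 was 0.404 in the MMP9 KO library and 2.26 in the Control library per kilobase. The order in the MMP9 KO library rests on the transcript lengths, since Sirpa had 2274 reads there and Lilrb4 2035, and the length of Lilrb4 comes from a gene model that spans both gp49 genes.

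Close relatives of the receptors were compared family by family. Lilrb3 stands beside the PIR-A genes, which encode its activating counterparts and pair with the gamma chain. The PIR-A genes were lower too: Pira2 was 0.309 in the MMP9 KO library and 3.28 in the Control library (10.6-fold lower, 6.00 to 20.5), Pira5 was 0.238 and 2.48, and Lilra6 was 0.166 and 2.29. The inhibitory and activating PIR genes therefore differed in the same direction and by similar folds. They are not independent: 37.3% of the 50-base stretches of the Lilrb3 transcript also occur in transcripts of other genes, 20.7% in Pira2. How such reads were assigned is not stated, so the split among PIR genes is uncertain.

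The gp49 genes behaved alike as well. Gp49a, which lacks the ITIM of gp49B, was 46.1 in the MMP9 KO library and 16.0 in the Control library, 2.88-fold higher (2.63 to 3.15). Of the 50-base stretches of the Lilrb4 row's model, 100% also occur under other gene identifiers of GENCODE M21. Most of this is not sharing between different genes. Lilrb4a, the entry of gp49B itself, overlaps the model on the same strand and held 98.7% of the stretches. Lilr4b, the other gp49 gene, held 30.8%. GENCODE M21 also gives the identifier of the Lilrb4 row (ENSMUSG00000062593) to a model on chromosome 10, from 51480612 to 51496613 in GRCm38, that spans both gp49 genes. The values of Lilrb4 and Gp49a cannot be told apart with certainty.

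The CD300 family, on chromosome 11, held lower and higher members. The inhibitory Cd300a was 13.4 in the MMP9 KO library and 49.1 in the Control library (3.68-fold lower, 3.35 to 4.05). The inhibitory Cd300lf was higher, with the limit on its call given above. Among activating members, Cd300ld was 8.84 and 1.04 (8.47-fold higher, 6.14 to 11.9). Cd300e was 4.51 and 0.0745, which is 60.5-fold higher with an interval from 20.4 to 296, since it had 3 reads in the Control library, and it too passed the filter through the MMP9 KO library alone. Cd300lb, another activating member, was 69.6 and 104, within 2-fold. The rows Cd300lh, Gm11710 and Gm11711 had 289, 288 and 287 reads in the MMP9 KO library and 7 each in the Control library. Their transcripts are all 852 bases long, so these rows cannot be taken as independent. Whether the same reads were counted in each was not tested. Of the Cd300lf stretches 6.70% were shared with other genes, and Rab37, which overlaps Cd300lf on the other strand, had no read in either library.

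**Figure D3:**
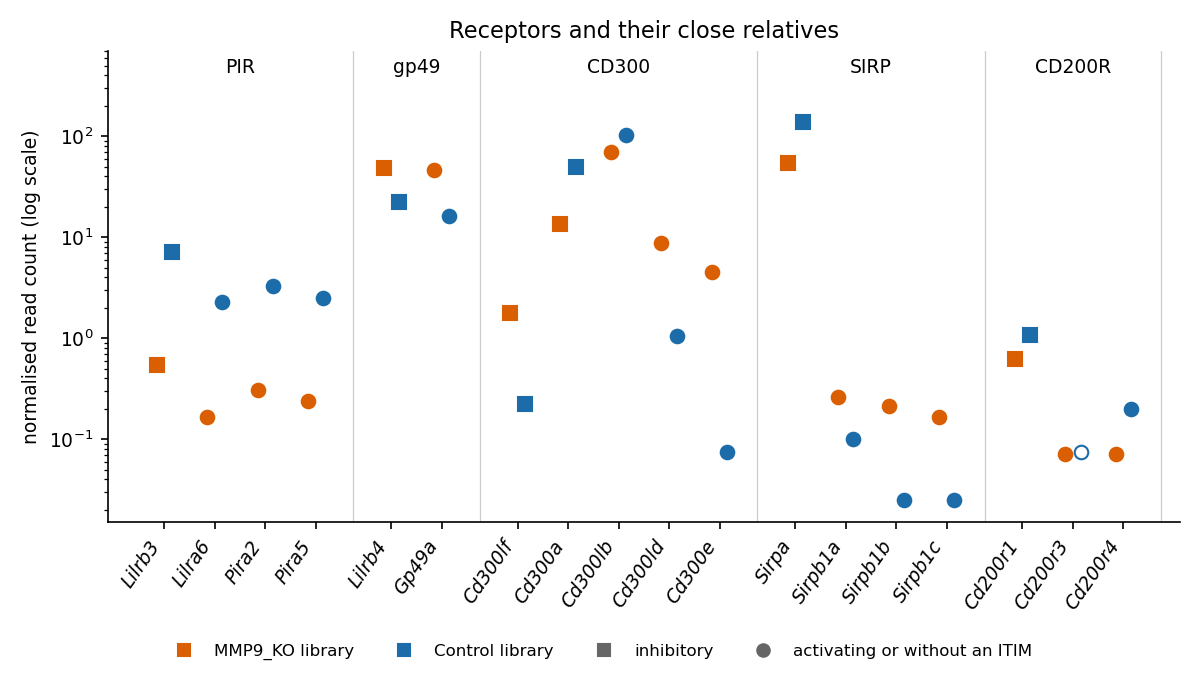
Normalised read counts (log scale) of the receptors and close relatives by family, MMP9 KO library in orange and left, Control library in blue and right, 1 library each. Squares are inhibitory receptors, circles activating ones or those without an ITIM, and an open symbol marks no read, drawn at 3 reads. The PIR genes are lower and both gp49 genes higher in the MMP9 KO library, whereas the CD300 family holds both directions.

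The activating SIRP-beta relatives of Sirpa were barely detected. Sirpb1a was 0.261 in the MMP9 KO library and 0.0994 in the Control library, and Sirpb1b was 0.214 and 0.0248, all below the level filter. No 50-base stretch of Sirpa, Oscar, Tyrobp or the TREM genes occurred in another gene. The Cd200r1 relatives Cd200r3 and Cd200r4 had at most 8 reads in a library.

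Other activating receptors and adaptors included more higher than lower genes. Of 30 with a row, 14 were compared: 8 were higher, 3 were lower and 3 were within 2-fold, where 4.0% of all compared genes were higher and 9.58% lower. The 8 higher ones include Gp49a, whose values cannot be told apart with certainty from those of Lilrb4 on the inhibitory side. Gp49a lacks the ITIM of gp49B, and its coupling to an ITAM was not checked. The median log2 ratio was 1.30, against -0.16 for all compared genes and 0.22 over all 30. Fcgr1, the high-affinity IgG receptor, was 11.1 in the MMP9 KO library with no read in the Control library, at least 149-fold higher against a limit of 3 reads, with an exact interval that starts at 121. Clec4d, a C-type lectin that pairs with the gamma chain, was 17.8 and 4.55 (3.92-fold higher, 3.33 to 4.63). Members such as Fcgr1 and Cd300e passed the level filter through the MMP9 KO library alone, and the 3 lower ones through the Control library alone. Their calls were thus partly fixed by the filter in either direction. With a mean of at least 5 required, 5 were higher and none was lower. The 3 lower ones were the PIR-A genes given above.

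Other inhibitory receptors went both ways. Of 17 with a row, 12 were compared, with 3 higher, 2 lower and 7 within 2-fold, and a median of 0.19. Among all compared genes 4.0% were higher and 9.58% lower. With a mean of at least 5 required, 1 was higher (Cd33), 2 were lower and the median was -0.56, so the direction of the median depends on the filter. Whether the mouse proteins of this list carry an ITIM was not checked, for Cd33 as for the others. Clec4a2, a C-type lectin with an ITIM that restrains dendritic cells and, in mice, bone loss, was 3.63 in the MMP9 KO library and 56.6 in the Control library, 15.6-fold lower (13.2 to 18.5). The sialic acid receptor Cd33 was 14.0 and 1.07, 13.1-fold higher (9.58 to 18.3), and Siglece was 4.20 and 0.124, 33.8-fold higher (14.2 to 106). Siglece had 5 reads in the Control library and passed the filter through the MMP9 KO library alone, which partly fixed its call. Pdcd1, which encodes PD-1, was 7.03 and 1.27. The Fc receptor Fcgr2b was 6.03 and 3.03, just within 2-fold.

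Of 29 kinases and effectors downstream of ITAMs 27 were compared. Of these 5 were lower, 1 was higher and 21 were within 2-fold, where 13.6% of all compared genes were called in either direction, and the median was -0.18. Src was 16.9 in the MMP9 KO library and 213 in the Control library, 12.6-fold lower (11.6 to 13.6). Its relative Lyn was 101 and 83.4, and Lck was 7.72 and 1.39. The adaptor Lat2 was 2.74-fold and the ubiquitin ligase gene Cblb 3.00-fold lower. Syk, the kinase that binds ITAMs, was not analysed here.

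Among 20 phosphatases and adaptors that act with ITIMs, 19 were compared, with 4 lower, 2 higher and 13 within 2-fold, against the same background, and a median of -0.049. The phosphatase genes that ITIMs recruit differed little: Ptpn6 (SHP-1) was 191 in the MMP9 KO library and 159 in the Control library, and Ptpn11 (SHP-2) was 94.3 and 78.1. Dok3, an adaptor that restrains immunoreceptor signals, was 17.2 and 73.5, 4.28-fold lower (3.94 to 4.64). Fyb, an adaptor linking receptors to integrins and actin, was 79.7 and 19.1, 4.18-fold higher (3.86 to 4.53). The other genes named by rule were Sla (3.99-fold higher) and Ptpn18 (2.73-fold lower).

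Ligands of the receptors were compared in the same cells. Of 22 entries 11 were compared, of which 3 were lower and 8 within 2-fold, against 9.58% lower among all compared genes. The median was -0.023. Cd200, the ligand of Cd200r1, was 0.0713 in the MMP9 KO library and 11.6 in the Control library, from 3 and 465 reads. The ratio was 162-fold lower, with an interval from 55.1 to 789, whereas the receptor gene itself was 1.73-fold lower. Cd47, the ligand of Sirpa, was 68.7 and 65.5, with a counting interval of the fold from 0.995 to 1.11 at the deposited scale. This interval leaves out the scaling of the libraries, which shifts log2 ratios by up to 0.29. The integrin genes Itgb3 and Itgav, whose product alpha-v beta-3 binds gp49B in mice, were 0.475 and 45.8, and 173 and 639. Cd200 and Itgb3 passed the level filter through the Control library alone, so their calls were partly fixed by it. The collagen genes Col1a1, Col1a2 and Col3a1, ligands of Oscar, and Pglyrp1, a ligand of Trem1, had no read in either library, which for each allows a level of up to 0.0713 in the MMP9 KO library and 0.0745 in the Control library.

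**Figure D4:**
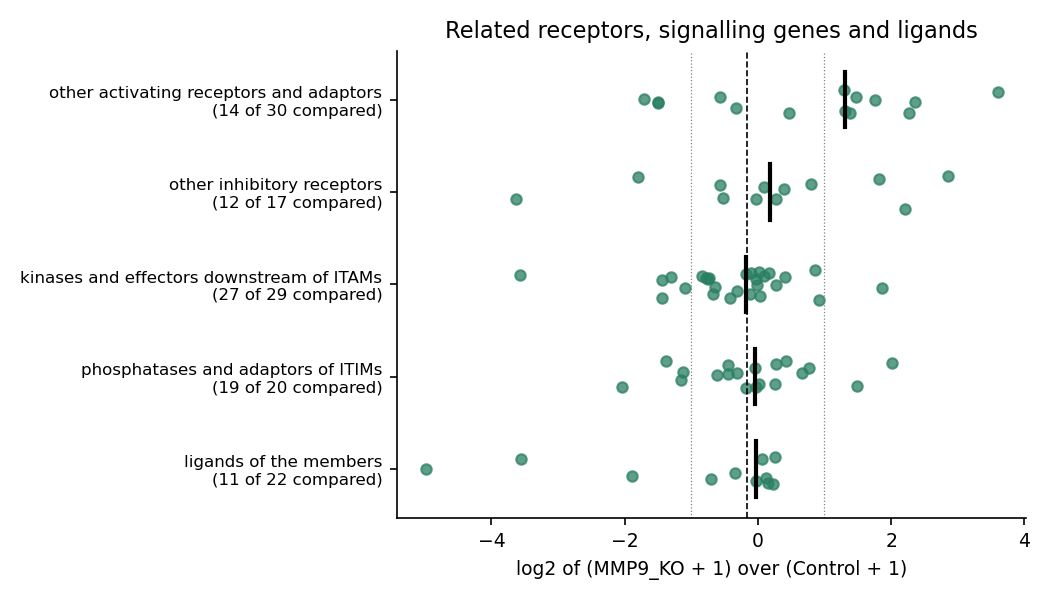
Log2 ratio of MMP9 KO over Control, each level plus 1, for compared genes of 5 related lists, 1 point per gene, with the black bar at the list's median. The dashed line is the median of all compared genes (-0.16) and dotted lines mark 2-fold. Other activating receptors have the highest median, at 1.30, with the PIR-A genes at the low end, and the medians of the signalling lists lie close to the dashed line.

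Markers of other cells that carry such receptors stood as follows. Of 14 dendritic cell markers 5 were compared, 3 higher and 2 lower, where 4.0% of all compared genes were higher and 9.58% lower. The summed level of all 14 was 200 in the MMP9 KO library and 76.2 in the Control library, with Flt3 at 0 in both. Itgax, also expressed by osteoclasts and macrophages, was 0.665 and 11.2, and Zbtb46 was 1.24 and 4.40. The higher ones were Cd74, at 143 in the MMP9 KO library and 52.5 in the Control library, Bst2, at 46.0 and 5.89, and Ccl22, at 7.34 and 0.646, and Cd74 made up most of the sum. Itgax passed the level filter through the Control library alone and Ccl22 through the MMP9 KO library alone, which partly fixed their calls. The 15 B, T and NK cell markers summed to 0.261 in the MMP9 KO library and 0.0994 in the Control library, the 9 mast cell markers to 0.0950 and 0.0994, and the 10 stromal markers to 0.689 and 1.19. None of these 3 lists had a gene at the level for comparison. The part of dendritic cell genes in the receptor differences was not tested.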

How the data were processed

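Polyadenylated RNA from 1 MMP9 KO and 1 Control culture was read on an Illumina sequencer, per the labels. The submitters' processing notes name TopHat and the mm9 build. Not given in the sources used here are the counting program, annotation, strand use and normalisation. For 26037 genes the authors deposited log2 values in a table titled as normalised RPKM. After conversion from log2 the values were whole multiples of 1 step per library (0.0238 in the MMP9 KO library, 0.0248 in the Control library) at any gene length, with 99.99% within 0.05 of a whole read in each, and the lowest value, 0.9 of the step, was taken as no read. No count model could be fitted with 1 library per group.

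Levels are reads times the step, and ratios are log2 of MMP9 KO plus 1 over Control plus 1. Fold intervals are exact (Clopper-Pearson on the reads). Since PCR copies could not be removed by molecular identifiers, intervals and limits cover counting error only. GENCODE M21 (GRCm38) gave positions, and length and GC content of the longest protein-coding transcript, for 23607 genes by Ensembl identifier; 96.2% of compared genes had a value. It is another build than the alignment's. The read recovery, calls and intervals were checked on simulated Poisson counts written in the format that the recovery assumes. This checks the code only. It cannot show that the deposited values are reads, and it holds no variation between cultures. Python 3.11.15, numpy 2.4.6, pandas 2.3.3, scipy 1.17.1 and matplotlib 3.10.9 were used.

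Genes open to naming by rule were the 10 receptors, Mmp9 and, in each of 12 lists, the first 2 genes and the 4 compared genes with the largest difference. Not all of these are printed, and the osteoclast and macrophage lists are given mainly as counts and sums. Relatives of a receptor, neighbours and further neutrophil markers and ligands were added after values were seen. Of 216 list entries 5 had no row. The members, lists and thresholds were chosen with earlier results of these data known. Alternatives were other pseudocounts, level filters and scalings, and centring by GC content or by length, each in 20 bins.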

Additional observations from a re-analysis of the deposited data

How the results depend on the processing

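No paired analysis was possible because each genotype had 1 library. Leaving a library out was likewise impossible. Over the 9 alternatives no receptor gene changed sign. A pseudocount or a level filter cannot change a sign, and the scalings moved ratios by 0.29 in log2 or less. For these settings the result was largely fixed in advance. Centring moved some ratios further, as for Tyrobp from -1.16 to -0.65 by length and Trem2 from -0.86 to -0.48 by GC content. The count of lower receptor genes was 3 or 4. The count of higher ones was 0 with a pseudocount of 5, 1 with a mean of at least 5, and 3 with no filter, when Trem3 was called higher. For Cd300lf the loss of the call was by construction, since the first 2 of these settings shrink or remove low genes. Lilrb4 is not a low gene and lay just inside the limit, at 0.98 with a pseudocount of 5. The activating median was -0.72 with a pseudocount of 5, -0.69 with the median set to 0, -0.68 with a trimmed mean, -0.59 with equal sums, -0.48 when centred on GC content, -0.49 when centred on length and -0.40 without Tyrobp. The inhibitory median was -0.70 with a pseudocount of 0.1. The difference of the medians was -0.038 after centring by GC content, -0.042 without Tyrobp and -1.04 over compared genes only. The value without Tyrobp keeps genes under the level filter, and over compared genes the activating median was -2.62 without Tyrobp. The cause of these shifts was not tested. Over all compared genes, 603 were lower and 255 higher with a pseudocount of 5, 684 and 691 with equal sums, and 671 were lower when centred on GC content. The Mmp9 log2 ratio was -5.13 and -4.02 with pseudocounts of 0.1 and 5, -4.62 with equal sums and -4.52 when centred on GC content. Of the single receptor genes' alternative values 47 stayed within the counting interval and 43 left it. The median of the other inhibitory receptors was -0.56 with a mean of at least 5, against 0.19. Low read numbers limit what can be said of Cd300lf, Cd200r1, Trem1 and Trem3, as does the lack of replicates for every gene.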
